A study of Homo sapiens with 9 samples.

Results

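The 9 genes described here form a transcription factor program of leukemias with a rearranged KMT2A gene: HOXA5, HOXA6, HOXA7, HOXA9, HOXA10, MEIS1, PBX3, MEF2C and MYB. They were chosen by symbol from a table of 30017 genes, and all 9 were among the 12712 genes with enough counts to be tested. Their RNA was measured by RNA-sequencing (RNA-seq) in MOLM13, a human acute myeloid leukemia line with monocytic features that carries a fusion of KMT2A with MLLT3. Cells grown in medium with serum were transduced with a lentiviral pLKO-GFP vector carrying a control short hairpin RNA (sh-Control) or 1 of 2 hairpins against the RNA helicase DDX41 (Sh-DDX41_1 and Sh-DDX41_2), and sorted on day 4. Each group had 3 libraries, replicates A, B and D. All groups therefore share the cell line, the vector and the sort, and the line stands for a single leukemia. Nothing in the labels says that the 3 libraries of a group came from separate transductions, so p-values measure the spread between these libraries, which may be technical.

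HOX genes encode homeodomain proteins that set the identity of blood progenitors, and those of the HOXA cluster are normally switched off as myeloid cells mature. HOXA9 binds DNA together with MEIS1 and PBX3, cofactors of the three-amino-acid-loop (TALE) homeodomain class, and fusions of KMT2A hold these genes and MEF2C in an active state. MYB, a factor needed for self-renewal of progenitors, acts beside this complex at the enhancers of leukemia cells.

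Libraries held between 16385238 and 20510032 counts. Levels are given as CPM, the counts of a gene scaled to a common library total, after TMM normalization. DDX41 itself fell from 115 ± 1.76 CPM (SD, n = 3) in sh-Control to 11.7 ± 1.56 in Sh-DDX41_1 and 40.4 ± 1.85 in Sh-DDX41_2, so the hairpins differed both in sequence and in the DDX41 RNA left, which cannot be told apart here. Replicate D of Sh-DDX41_1 stood apart from the other libraries of its group, with a chi-square per degree of freedom of 17.6 and 19.2 against replicates A and B, which differed from each other by 2.91. All 10 myeloid markers examined were detected, and their summed level was 2490.3 to 2681 CPM in sh-Control, 2532 to 2636 in Sh-DDX41_1 and 3417 to 3476 in Sh-DDX41_2. LYZ made up 42.2% of that sum over all libraries and stood at 931 ± 54.9 CPM in sh-Control and 1818 ± 20.6 in Sh-DDX41_2, while the median log2 fold change of the list was -0.05 with each hairpin. Of 5 erythroid markers 4 had no count, among them HBB, and the B cell markers MS4A1 and PAX5 and the epithelial and fibroblast markers CDH1, KRT19 and COL1A2 had none either. B cell markers summed to at most 1.32 CPM and epithelial and fibroblast markers to 15.4 to 19.7 CPM over all libraries. T and NK cell markers summed to 20.6 to 23.8, 12.5 to 17.6 and 24.6 to 27.5 CPM in the 3 groups, of which NKG7 made up 92.5%, with CD2 at no count, and their part in the results below was not tested. In bulk RNA, fewer cells that express a gene and less of its RNA per cell cannot be told apart.

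A gene was called where the Benjamini-Hochberg adjusted p of edgeR's quasi-likelihood test over the 12712 genes was under 0.05, and every adjusted p below is of that kind. With Sh-DDX41_1, HOXA5, HOXA6, HOXA9 and MYB rose and MEIS1 fell against sh-Control. These 5 of 9 genes (55.6%) compare with 47.8% of all tested genes called in that comparison. With Sh-DDX41_2, PBX3 rose and the other 8 genes were not called, a share of 11.1% beside 25% of all tested genes. Directly between the hairpins, HOXA5, HOXA6 and MYB were higher with Sh-DDX41_1, or 33.3% of the 9 genes beside 48.8% of all tested genes, 24.6% higher and 24.2% lower. None of these shares was tested against the background, and the first lies near it.

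Changes of these genes were small beside those of many others. The median log2 fold change of the 9 genes was 0.10 with Sh-DDX41_1 and 0.04 with Sh-DDX41_2, where the medians over all tested genes were 0.01 and -0.01. In absolute size the medians were 0.24 and 0.10 for the 9 genes and 0.29 and 0.18 for all tested genes. The largest change of a member was the 1.90-fold higher HOXA5 of Sh-DDX41_1 over Sh-DDX41_2. A called change of at least 2-fold was seen in 6.72% of tested genes with Sh-DDX41_1, 2.46% with Sh-DDX41_2 and 6.55% between the hairpins, but in none of the 9. At an adjusted p under 0.01, 4, 0 and 3 members were called in the 3 comparisons, beside 34.6%, 13.1% and 35% of tested genes. Leaving out replicate D of Sh-DDX41_1 gave 6, 2 and 4 members called in the 3 comparisons in place of 5, 1 and 3. In that fit 48.5%, 32.9% and 49% of all tested genes were called, in place of 47.8%, 25% and 48.8%.

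**Figure D1:**
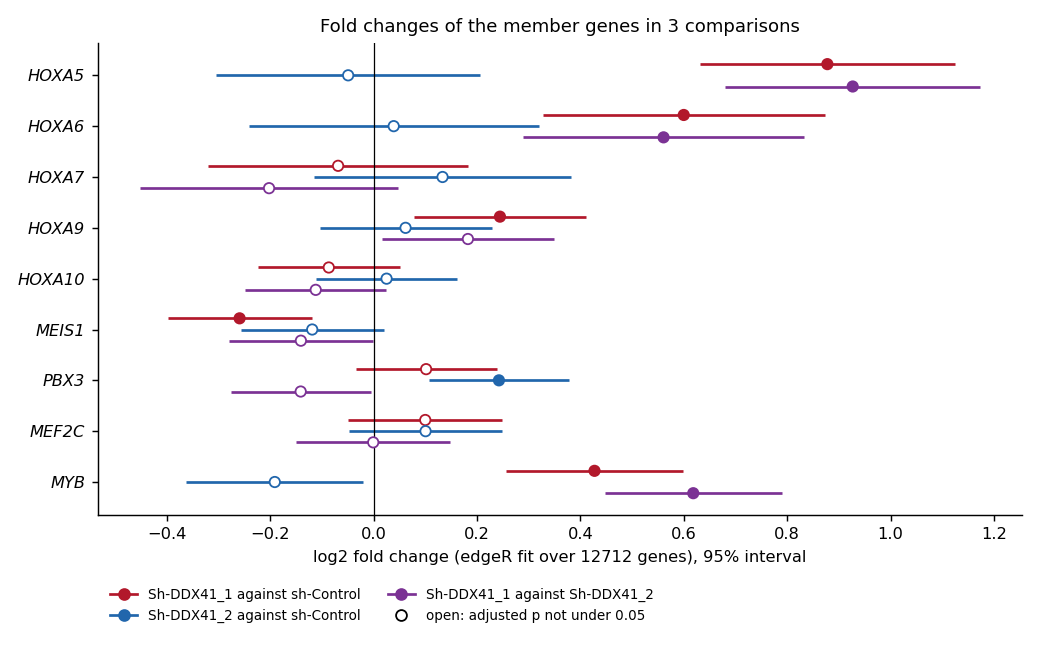
Log2 fold change (x axis) of each of the 9 genes in the 3 comparisons, with its 95% interval from the edgeR fit. Filled points had an adjusted p under 0.05, and HOXA5 between the hairpins lies farthest from 0, at 0.93.

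Levels were ordered per length of exon, because longer transcripts collect more counts. In sh-Control, MYB was at 74.8 ± 8.44 CPM per kb of exon, above MEF2C at 29.6 ± 1.26, PBX3 at 22.4 ± 1.20 and HOXA10 at 17.4 ± 0.942. HOXA9 at 12.0 ± 0.646 and HOXA7 at 11.3 ± 1.92 came next and overlapped. HOXA5 at 7.95 ± 0.995 and MEIS1 at 7.60 ± 0.320 also overlapped, and HOXA6 was lowest at 5.79 ± 0.503. Only those 2 neighbouring pairs overlapped in this order. With Sh-DDX41_1, HOXA5 reached 14.6 ± 0.820 CPM per kb, beside HOXA9 at 14.2 ± 0.791, and MEIS1 at 6.35 ± 0.365 was the lowest of the 9. Lengths are unions of all annotated exons, so genes with many alternative exons are understated. Exons of HOXA6 and HOXA7 also share 39.3% and 62.5% of their bases with HOXA-AS3 on the opposite strand. Whether that changed this order was not tested.

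Promoters are shown for HOXA6, HOXA9, MEIS1 and MYB, the called genes with Sh-DDX41_1 that had an entry among the 35116 RefSeq promoters of GRCh38. In all, 8 of the 9 genes were matched by symbol, and HOXA5 was not matched. Each stretch holds the 150 bases just before the annotated start, read 5′ to 3′ on the strand of the gene, and overlaps no annotated exon. HOXA6 is read from chr7:27147775-27147924 and HOXA9 from chr7:27165538-27165687, both on the minus strand. MEIS1 is read from chr2:66434975-66435124 and MYB from chr6:135181158-135181307, both on the plus strand. Capitals mark, on either strand, a TATA box as TATAAA, the CCAAT box, a MEIS site as TGACAG and an E-box as CACGTG.
HOXA6: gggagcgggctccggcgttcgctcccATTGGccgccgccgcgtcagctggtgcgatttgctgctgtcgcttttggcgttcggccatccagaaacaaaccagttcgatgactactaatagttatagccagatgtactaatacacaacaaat
HOXA9: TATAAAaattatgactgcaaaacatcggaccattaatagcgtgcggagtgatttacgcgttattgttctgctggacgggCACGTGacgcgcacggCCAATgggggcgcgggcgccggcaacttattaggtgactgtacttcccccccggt
MEIS1: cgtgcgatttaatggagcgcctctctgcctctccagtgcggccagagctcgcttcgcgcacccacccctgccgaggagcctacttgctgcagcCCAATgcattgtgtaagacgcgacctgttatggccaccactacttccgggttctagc
MYB: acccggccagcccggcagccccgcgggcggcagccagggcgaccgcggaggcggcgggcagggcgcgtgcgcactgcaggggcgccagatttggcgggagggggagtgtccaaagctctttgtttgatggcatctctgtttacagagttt

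HOXA9 was the only one of these 4 with the letters of a TATA box, an E-box and a CCAAT box together, and the MYB stretch held none of the 4 motifs. Over the 250 bases before the start, TATAAA was present in 2 of the 8 matched genes, HOXA9 and HOXA10, and in 10.7% of all promoters. CCAAT was present in 5 of 8, HOXA6, HOXA7, HOXA9, HOXA10 and MEIS1, and in 32% of all. TGACAG was found in PBX3 alone (13.0% of all), CACGTG in HOXA9 alone (6.3% of all), and AACNG, the core of a MYB site, in 5 of 8 (70.6% of all). TGATTNAT, a composite HOX and PBX site, was in none of the 8 and in 2.5% of all. The 8 windows were rich in G and C, with a median of 64% against 58% over all promoters. No motif separated the genes that rose with Sh-DDX41_1 from those that did not, and a match of letters is a description of the sequence only.

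HOXA5, a homeodomain factor of the middle of the cluster (chr7:27141052-27143668 in the GENCODE annotation of GRCh38), changed most among the HOXA members. It stood at 14.99, 14.0 and 11.7 CPM in sh-Control replicates A, B and D, at 26.3, 24.9 and 23.5 in Sh-DDX41_1, and at 14.0, 11.3 and 14.1 in Sh-DDX41_2. All 3 Sh-DDX41_1 libraries lay above every other library, while sh-Control and Sh-DDX41_2 overlapped. HOXA5 rose by 0.88 ± 0.116 (SE) on the log2 scale with Sh-DDX41_1 (adjusted p = 2.1e-05), 83.7% higher, and its log2 fold change with Sh-DDX41_2 was -0.05 ± 0.120 (adjusted p = 0.802). The 95% interval of the latter, from -0.30 to 0.21, does not reach the former. The hairpins differed by 0.93 ± 0.116 (adjusted p = 1.2e-05).

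HOXA6, the next gene of the cluster, had the fewest counts of the 9, with 129 to 205 in a library. Its levels were 7.44, 8.09 and 6.79 CPM in sh-Control, 12.4, 11.6 and 9.89 in Sh-DDX41_1, and 7.78, 6.99 and 8.18 in Sh-DDX41_2. Again the Sh-DDX41_1 libraries were the 3 highest and the other groups overlapped. HOXA6 rose by 0.60 ± 0.128 on the log2 scale with Sh-DDX41_1 (adjusted p = 0.0013) and differed by 0.04 ± 0.131 with Sh-DDX41_2 (adjusted p = 0.861). The hairpins differed by 0.56 ± 0.128 (adjusted p = 0.0020). Exons of HOXA6 share 39.3% of their bases with HOXA-AS3 on the opposite strand, a gene with only 7 to 21 counts in a library.

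HOXA9, the HOX gene most closely tied to KMT2A-rearranged leukemia, changed less. Its levels were 38.4, 34.6 and 35.7 CPM in sh-Control, 45.7, 41.7 and 41.4 in Sh-DDX41_1, and 38.5, 35.1 and 39.999 in Sh-DDX41_2. The Sh-DDX41_1 libraries were higher than all others by a narrow margin. The log2 fold change was 0.24 ± 0.0779 with Sh-DDX41_1 (adjusted p = 0.0175), 0.06 ± 0.0780 with Sh-DDX41_2 (adjusted p = 0.602) and 0.18 ± 0.0777 between the hairpins (adjusted p = 0.0641). The call with Sh-DDX41_1 was lost without sh-Control replicate B (0.21, adjusted p = 0.0732), without sh-Control replicate D (0.23, adjusted p = 0.0514) or without Sh-DDX41_1 replicate A (0.20, adjusted p = 0.0784). Between the hairpins HOXA9 was called without Sh-DDX41_1 replicate D (0.21, adjusted p = 0.0397).

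HOXA7 and HOXA10, which flank HOXA9, were not called in any comparison. HOXA7 ranged from 23.3 to 32.3 CPM in sh-Control, from 22.7 to 29.8 in Sh-DDX41_1 and from 29.6 to 30.0 in Sh-DDX41_2, so the first 2 groups each spread more widely than the means differed. Its log2 fold changes were -0.07 (95% interval -0.32 to 0.18) and 0.13 (-0.11 to 0.38). HOXA10, the most abundant HOXA member per length, stood at 60.9, 64.5 and 67.9 CPM in sh-Control, 59.4, 61.1 and 61.5 in Sh-DDX41_1, and 66.6, 65.95 and 64.1 in Sh-DDX41_2. Its intervals were narrower, from -0.22 to 0.05 with Sh-DDX41_1 and from -0.11 to 0.16 with Sh-DDX41_2, and both exclude a rise as large as that of HOXA5 or HOXA6. HOXA-AS3 covers 62.5% of the exonic bases of HOXA7, and HOXA10-AS, with 159 to 268 counts, covers 13.9% of those of HOXA9 and 16.4% of those of HOXA10. On the same strand, the GENCODE gene AC004080.3 covers 13.1% of those of HOXA9 and 9.9% of those of HOXA10. It was not among the counted genes under that name, and the effect of these overlaps on the counts was not tested.

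**Figure D2:**
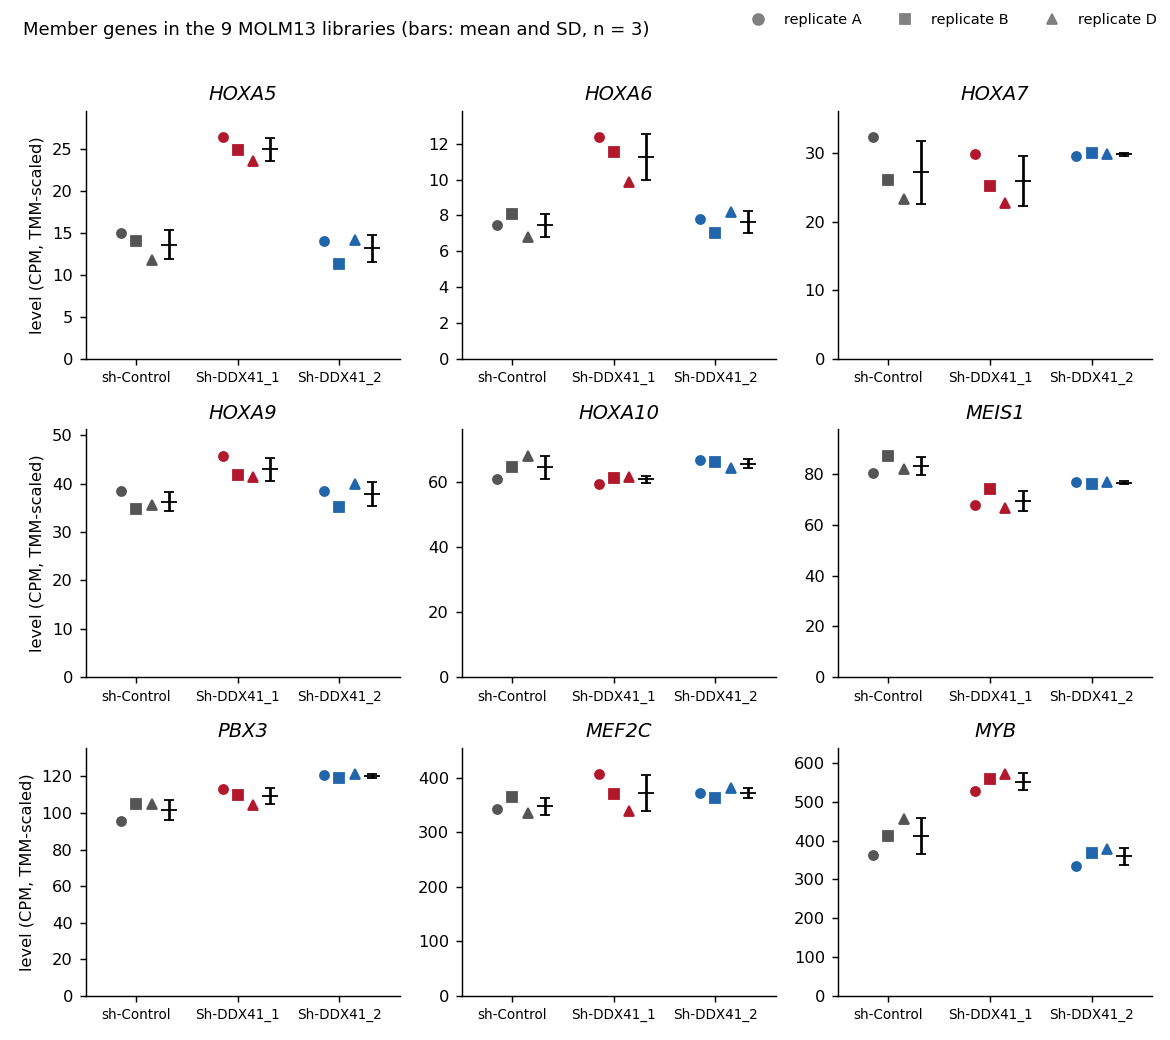
Level of each gene (y axis, CPM after TMM scaling, starting at 0) in the 9 libraries by group, with the mean and SD (n = 3) beside the points. HOXA5, HOXA6 and MYB separate Sh-DDX41_1 from both other groups, as do HOXA9 and MEIS1 by narrower margins, whereas HOXA7 and MEF2C overlap across the groups.

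The 5 HOXA members together summed to 149 ± 4.60 CPM in sh-Control, 166 ± 7.39 in Sh-DDX41_1 and 154 ± 4.04 in Sh-DDX41_2. HOXA5 made up 8.05% to 9.73% of that sum in sh-Control and 7.57% to 9.03% in Sh-DDX41_2, but 14.8% to 15.2% in Sh-DDX41_1. The balance within the cluster was also followed as ratios of counts within a library, which need no scaling between libraries. The pairs were chosen after the levels had been seen, so the ratios are a description. HOXA5 to HOXA10 was 0.212 ± 0.0373 in sh-Control, 0.411 ± 0.0304 in Sh-DDX41_1 and 0.201 ± 0.0258 in Sh-DDX41_2. HOXA9 to HOXA10 was 0.564 ± 0.0578, 0.708 ± 0.0527 and 0.578 ± 0.0461 in the same order. For both ratios the Sh-DDX41_1 libraries lay above all others, and the exact two-sided permutation p against sh-Control was 0.1, the smallest that 3 against 3 libraries allow. HOXA7 to HOXA10 was 0.426 ± 0.0957, 0.428 ± 0.0678 and 0.455 ± 0.0110, and the groups overlapped throughout.

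Of 5 other coding genes of the cluster examined, 0 were called with either hairpin against sh-Control by edgeR, DESeq2 or limma voom. By edgeR, 47.8% and 25% of all tested genes were called with Sh-DDX41_1 and Sh-DDX41_2. At an unadjusted p under 0.05, edgeR gave 1 of 5 with each hairpin, beside 6966 and 4752 of all 12712 tested genes. HOXA4, which adjoins HOXA5, stood at 1.94, 2.52 and 1.74 CPM in sh-Control and at 3.38, 2.63 and 3.64 in Sh-DDX41_1, with a log2 fold change of 0.64 ± 0.255 (adjusted p = 0.0506). The groups did not overlap, and the call failed with TMM factors but passed with upper quartile factors (0.72, adjusted p = 0.0297). HOXA4 was not called under the 2 other scalings tried, and its level per length was below that of every member. HOXA11, as abundant per length as HOXA10, was even across groups, with log2 fold changes of -0.05 ± 0.0751 and -0.01 ± 0.0746. HOXA3 differed by 0.10 ± 0.139 and -0.00 ± 0.139, and HOXA13 by -0.19 ± 0.146 and -0.06 ± 0.144. HOXA2, with 2 to 14 counts in a library, was called between the hairpins (1.93 ± 0.516, adjusted p = 0.0061).

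Among the non-coding genes of the cluster, 4 of 8 had enough counts to be tested. HOXA11-AS fell by 0.40 ± 0.142 on the log2 scale with Sh-DDX41_1 (adjusted p = 0.0285), from 8.65 ± 1.07 to 6.53 ± 0.716 CPM, and stood at 11.1 ± 1.23 CPM with Sh-DDX41_2 (0.36 ± 0.134, adjusted p = 0.0608). Upper quartile factors changed both calls, with a fall of 0.33 that was not called with Sh-DDX41_1 (adjusted p = 0.0694) and a rise of 0.39 that was with Sh-DDX41_2 (adjusted p = 0.0442). Between the hairpins HOXA11-AS differed by -0.77 ± 0.139 (adjusted p = 3.5e-04). HOTAIRM1, a non-coding RNA of the cluster, differed by 0.15 ± 0.222 and -0.14 ± 0.225, and HOXA10-AS by 0.00 ± 0.123 and 0.19 ± 0.120. HOXA-AS3, at 0.94 ± 0.215 CPM in sh-Control, differed by -0.45 ± 0.354 and -0.60 ± 0.353. The 4 that were not tested were HOXA-AS2, with 0 to 3 counts in a library, HOTTIP, with 1 to 5, MIR196B, with 0 to 6, and the read-through gene HOXA10-HOXA9, with 0 to 1. Outside the cluster the HOX genes were near silent. Of 28 HOXB, HOXC and HOXD genes, 23 had no count in any library and the highest count of the other 5 in any library was 7.

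**Figure D3:**
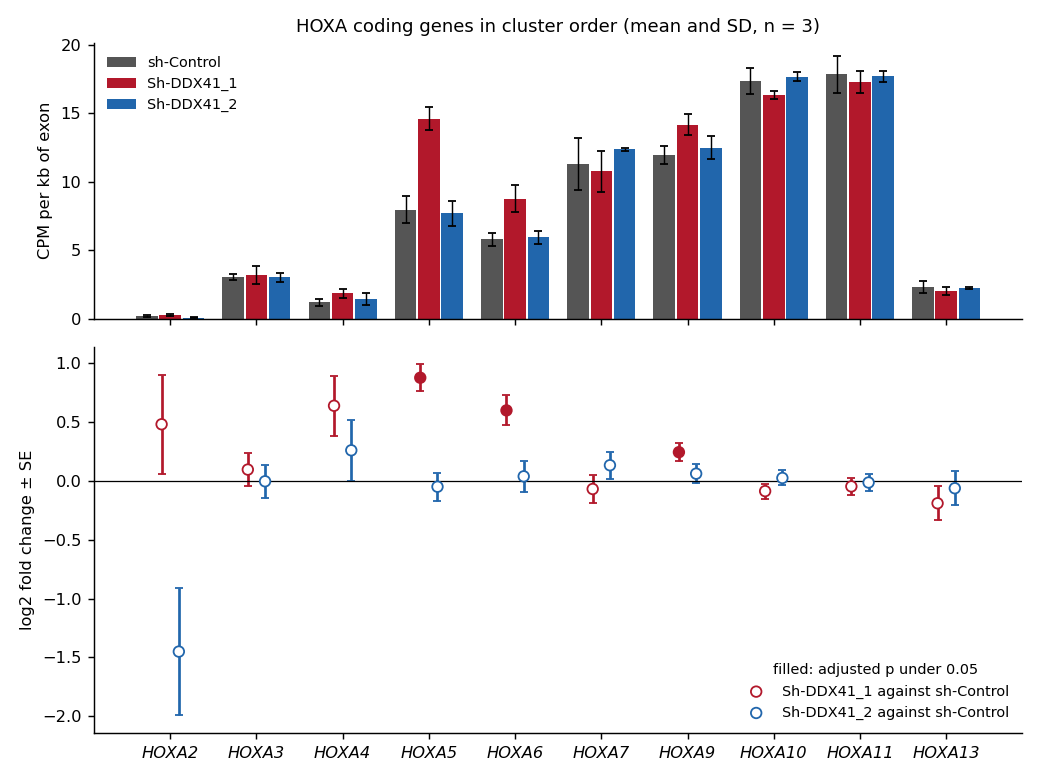
The 10 coding genes of the HOXA cluster examined, in genomic order from HOXA2 to HOXA13. Upper bars show the mean level in CPM per kb of exon with SD (n = 3), lower points the log2 fold change ± SE of each hairpin against sh-Control (filled: adjusted p under 0.05), which for Sh-DDX41_1 is filled at HOXA5, HOXA6 and HOXA9.

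MEIS1, the TALE partner that forms complexes with HOXA9 (chr2:66433452-66573869), was the member that fell. Its levels were 80.4, 87.0 and 81.7 CPM in sh-Control, 67.9, 73.9 and 66.4 in Sh-DDX41_1, and 76.9, 75.9 and 76.8 in Sh-DDX41_2. Every library of either hairpin was below the lowest sh-Control library, and the Sh-DDX41_1 libraries were lowest. MEIS1 fell by 0.26 ± 0.0654 on the log2 scale with Sh-DDX41_1 (adjusted p = 0.0044), a change of -16.4% in level. With Sh-DDX41_2 the value was -0.12 ± 0.0649 (adjusted p = 0.201), and between the hairpins -0.14 ± 0.0655 (adjusted p = 0.0890), so the effects of the hairpins were not shown to differ. Without Sh-DDX41_1 replicate B the difference between the hairpins was called (-0.19, adjusted p = 0.0401).

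PBX3, the other TALE partner (chr9:125747345-125967377), was the only member called with Sh-DDX41_2. It stood at 95.4, 105 and 105 CPM in sh-Control, 113, 110.0 and 104 in Sh-DDX41_1, and 121, 119 and 121 in Sh-DDX41_2. The Sh-DDX41_2 libraries were higher than all others, and Sh-DDX41_1 overlapped sh-Control. The log2 fold change was 0.24 ± 0.0636 with Sh-DDX41_2 (adjusted p = 0.0119), 18.3% higher, and 0.10 ± 0.0639 with Sh-DDX41_1 (adjusted p = 0.204). Between the hairpins it was -0.14 ± 0.0636 (adjusted p = 0.0796).

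MEIS1 had a negative and PBX3 a positive log2 fold change with each hairpin, although 1 of the 2 was called with each. The ratio of MEIS1 to PBX3 counts was 0.843, 0.831 and 0.780 in sh-Control, 0.601, 0.672 and 0.636 in Sh-DDX41_1, and 0.637, 0.637 and 0.634 in Sh-DDX41_2. All 6 hairpin libraries were below all 3 control libraries, and the group means with the hairpins were nearly equal, at 0.637 ± 0.0353 and 0.636 ± 0.00173 against 0.818 ± 0.0339. The exact permutation p was 0.1 for each hairpin against sh-Control and 1 between the hairpins. This was the only ratio of the 6 formed in which both hairpins left the control range on the same side. The pair was formed after the levels had been seen, from 2 genes with opposite signs, so its separation is a description. The hairpins share the 3 control libraries, so the agreement between them is not independent.

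**Figure D4:**
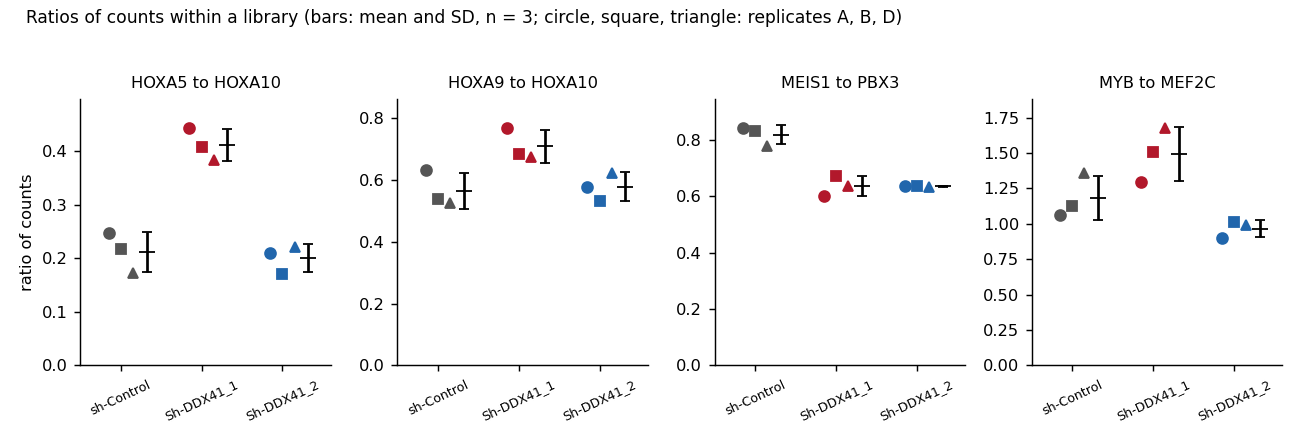
Ratio of the counts of 2 genes within each library (y axis, starting at 0) by group, with mean and SD (n = 3). HOXA5 to HOXA10 and HOXA9 to HOXA10 are high in Sh-DDX41_1 alone, and MEIS1 to PBX3 is low with both hairpins, at 0.637 and 0.636 against 0.818.

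MYB (chr6:135181315-135219173) had the highest level of the 9 genes per length. It stood at 364, 411 and 457 CPM in sh-Control, 527, 559.5 and 571 in Sh-DDX41_1, and 335, 367 and 378 in Sh-DDX41_2. Every Sh-DDX41_1 library was above every other library, whereas Sh-DDX41_2 overlapped the lower part of sh-Control. MYB rose by 0.43 ± 0.0800 on the log2 scale with Sh-DDX41_1 (adjusted p = 4.9e-04), 34.5% higher. With Sh-DDX41_2 the log2 fold change was -0.19 ± 0.0801 (adjusted p = 0.0949). The hairpins differed by 0.62 ± 0.0803 (adjusted p = 1.7e-05). The value with Sh-DDX41_2 passed the threshold without sh-Control replicate A (-0.27, adjusted p = 0.0210), the lowest control, or without Sh-DDX41_1 replicate D (-0.18, adjusted p = 0.0494).

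MEF2C, a MADS-box factor that supports homing and growth of these leukemias (chr5:88717117-88904257), was not called in any comparison. Its levels were 342, 364 and 336 CPM in sh-Control, 406, 371 and 340.0 in Sh-DDX41_1, and 373, 363 and 382 in Sh-DDX41_2. The groups overlapped in all 3 comparisons. Log2 fold changes were 0.10 with each hairpin, with the 95% interval from -0.05 to 0.25, which excludes a change as large as that of MYB with Sh-DDX41_1. Without Sh-DDX41_1 replicate D, MEF2C was called with that hairpin (0.17, adjusted p = 0.0239).

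By overlap of the libraries alone, 5 of the 9 genes separated Sh-DDX41_1 from sh-Control, 2 separated Sh-DDX41_2 from sh-Control, and 7 separated the hairpins. The shares over all tested genes were 53.1%, 43.8% and 57.7%. The genes whose pattern over the 9 libraries lay closest to that of HOXA9 were DACH1 and YIPF3, with a root mean square log2 difference of 0.0468 and 0.0489, where the median gene had 0.315. Closest to MEIS1 were SLK (0.0350) and INPPL1 (0.0420), and closest to MYB were MARS2 (0.0564) and RPUSD4 (0.0655).

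Relatives of MEIS1, PBX3, MEF2C and MYB outside the program were examined next. Of 14 listed, 9 were tested, and 3 rose and 4 fell with Sh-DDX41_1 (77.8% beside 47.8% of all tested genes), while 3 fell with Sh-DDX41_2 (33.3% beside 25%). PBX2, a paralog of PBX3, rose by 0.61 ± 0.0698 on the log2 scale with Sh-DDX41_1 (adjusted p = 5.1e-06) and was at -0.13 ± 0.0704 with Sh-DDX41_2. TGIF2, a TALE repressor, rose by 0.75 ± 0.0724 (adjusted p = 1.04e-06) with Sh-DDX41_1. MYBL2, the MYB paralog active in dividing cells, fell by 1.03 ± 0.0825 with Sh-DDX41_1 (adjusted p = 1.5e-07) while MYB rose, and was at -0.03 ± 0.0808 with Sh-DDX41_2. MEIS2, a paralog of MEIS1, fell with both hairpins, by 0.37 ± 0.131 (adjusted p = 0.0311) with Sh-DDX41_1 and 0.65 ± 0.132 (adjusted p = 0.0024) with Sh-DDX41_2. TGIF1, a paralog of TGIF2, also fell with both, by 0.55 ± 0.112 (adjusted p = 9.2e-04) and 0.33 ± 0.1103 (adjusted p = 0.0399). Upper quartile factors ended the call of MEIS2 with Sh-DDX41_1 (adjusted p = 0.0763) and of TGIF1 with Sh-DDX41_2 (adjusted p = 0.0595), and library size only also ended the latter (adjusted p = 0.0509). PKNOX1 fell by 0.36 ± 0.0897 with Sh-DDX41_2 (adjusted p = 0.0084). The median absolute log2 fold change of the list was 0.55 with Sh-DDX41_1, against 0.29 over all tested genes, and 0.12 with Sh-DDX41_2, against 0.18.

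The machinery that KMT2A fusions work with includes menin, the DOT1L complex, elongation factors and the core subunits of KMT2 complexes. Of 27 such genes, all tested, 3 rose and 3 fell with Sh-DDX41_1 (22.2% beside 47.8%), and 2 rose and 5 fell with Sh-DDX41_2 (25.9% beside 25%). PSIP1, which encodes LEDGF, the chromatin tether of the menin complex, fell by 1.19 ± 0.0671 on the log2 scale with Sh-DDX41_1 (adjusted p = 6.6e-09), from 81.8 ± 1.22 to 35.8 ± 2.28 CPM. It stood at 83.1 ± 2.23 CPM with Sh-DDX41_2, with a log2 fold change of 0.02 ± 0.0638. The elongation factor gene ELL fell by 0.41 ± 0.0762 (adjusted p = 4.4e-04) and MLLT10, a fusion partner and DOT1L cofactor, rose by 0.43 ± 0.0861 (adjusted p = 7.9e-04) with Sh-DDX41_1. With Sh-DDX41_2, CTR9, a subunit of the PAF1 complex, fell by 0.67 ± 0.0640 (adjusted p = 4.3e-06), and ASH2L, a core subunit of KMT2 complexes, rose by 0.20 ± 0.0558 (adjusted p = 0.0151). ELL2, a paralog of ELL, fell with both hairpins, by 0.40 ± 0.152 (adjusted p = 0.0396) and 0.53 ± 0.152 (adjusted p = 0.0189), the first not called with upper quartile factors (adjusted p = 0.0849). KMT2A itself differed by 0.10 ± 0.162 and 0.00 ± 0.162. MLLT3, its fusion partner in this line, had 61 to 130 counts in a library. MLLT3 was at 0.31 ± 0.149 with Sh-DDX41_1 (adjusted p = 0.0956), which upper quartile factors called (0.39, adjusted p = 0.0395). With Sh-DDX41_2 it was at -0.49 ± 0.157 (adjusted p = 0.0324), and between the hairpins at 0.80 ± 0.155 (adjusted p = 5.7e-04). Reads of the fusion cannot be told from those of the normal genes in these counts.

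Other genes bound by KMT2A fusions were called in both directions. Of 17 tested, 6 rose and 1 fell with Sh-DDX41_1 (41.2% beside 47.8% of all tested genes). With Sh-DDX41_2, 4 rose and 4 fell (47.1% beside 25%). MYC went in opposite directions, at 421 ± 18.4 CPM in sh-Control, 594 ± 46.2 in Sh-DDX41_1 and 276 ± 26.3 in Sh-DDX41_2. Its log2 fold change was 0.50 ± 0.0781 (adjusted p = 1.1e-04) with Sh-DDX41_1 and -0.61 ± 0.0786 (adjusted p = 6.2e-05) with Sh-DDX41_2. The hairpins differed by 1.11 ± 0.0791 (adjusted p = 4.8e-08), and this difference had the same sign as that of MYB. BCL2, the anti-apoptotic gene, rose by 0.54 ± 0.0729 with Sh-DDX41_2 (adjusted p = 1.02e-04), and TCF4 fell by 0.88 ± 0.175 (adjusted p = 0.0021). UBASH3B fell with both hairpins, by 0.58 ± 0.1003 (adjusted p = 2.6e-04) and 0.47 ± 0.0990 (adjusted p = 0.0033), and LAMP5 rose by 0.31 ± 0.0620 (adjusted p = 9.1e-04) with Sh-DDX41_1. The list was compiled from general knowledge and leaves the 9 genes out.

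Coactivators and target genes of MYB share MYC, BCL2, CDK6 and LMO2 with the list above. With Sh-DDX41_1, 3 of 10 tested genes were higher (30% beside 47.8% of all tested genes). With Sh-DDX41_2, 5 were higher and 1 was lower (60% beside 25%). MYB rose with Sh-DDX41_1 and was not called with Sh-DDX41_2, and its part in these values was not tested. ADA, adenosine deaminase, rose with both, by 0.89 ± 0.0763 with Sh-DDX41_1 (adjusted p = 2.9e-07) and 0.42 ± 0.0766 with Sh-DDX41_2 (adjusted p = 0.0012). ELANE, neutrophil elastase, rose by 0.22 ± 0.0808 with Sh-DDX41_1 (adjusted p = 0.0379). MPO, myeloperoxidase, rose by 0.59 ± 0.0688 with Sh-DDX41_2 (adjusted p = 2.8e-05) and was at 0.16 ± 0.0691 with Sh-DDX41_1, which upper quartile factors called (0.23, adjusted p = 0.0105). The coactivators CREBBP and EP300 were called with neither hairpin, at -0.05 ± 0.141 and -0.05 ± 0.150 with Sh-DDX41_1. With Sh-DDX41_2 they were at 0.29 ± 0.140 (adjusted p = 0.150) and 0.16 ± 0.149 (adjusted p = 0.464), and for CREBBP the groups did not overlap. Among 6 tested partners of MEF2C, 1 was called with Sh-DDX41_1 (16.7% beside 47.8%) and 2 with Sh-DDX41_2 (33.3% beside 25%), all higher. The class IIa histone deacetylase gene HDAC9 rose with both hairpins, by 1.05 ± 0.0845 (adjusted p = 1.5e-07) and 0.58 ± 0.0852 (adjusted p = 1.9e-04). HDAC5 rose with Sh-DDX41_2 by 0.32 ± 0.0776 (adjusted p = 0.0077). HDAC4, HDAC7, SIK2 and SIK3 were called with neither.

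Regulators of HOX genes include Polycomb proteins, which silence the clusters, and the demethylases that oppose them. Of 14 tested, 2 rose and 5 fell with Sh-DDX41_1 (50% beside 47.8% of all tested genes). With Sh-DDX41_2, 2 rose and 2 fell (28.6% beside 25%). EZH2, the H3K27 methyltransferase, fell by 0.83 ± 0.0749 on the log2 scale with Sh-DDX41_1 (adjusted p = 5.2e-07), from 97.2 ± 4.48 to 54.7 ± 5.18 CPM, and was at -0.01 ± 0.0729 with Sh-DDX41_2. The H3K27 demethylase gene KDM6A fell by 0.49 ± 0.0937 (adjusted p = 6.1e-04) and BMI1, of Polycomb complex PRC1, rose by 0.49 ± 0.0951 (adjusted p = 6.6e-04) with Sh-DDX41_1. CBX7 and CBX2, both of PRC1, were called with both hairpins. CBX7 rose by 0.42 ± 0.147 (adjusted p = 0.0282) with Sh-DDX41_1 and 0.74 ± 0.142 (adjusted p = 0.0017) with Sh-DDX41_2, and CBX2 fell by 0.50 ± 0.163 (adjusted p = 0.0206) and 0.75 ± 0.165 (adjusted p = 0.0043). JARID2, a PRC2 cofactor, went in opposite directions, falling by 0.29 ± 0.0824 with Sh-DDX41_1 (adjusted p = 0.0094) and rising by 0.31 ± 0.0819 with Sh-DDX41_2 (adjusted p = 0.0120). These changes stand beside the HOXA values and their part in them was not tested.

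Genes of monocyte maturation rise as monocytic leukemia cells differentiate. Of 16 tested, 4 rose and 4 fell with Sh-DDX41_1 (50% beside 47.8% of all tested genes). With Sh-DDX41_2, 5 rose (31.2% beside 25%). Summed over the list, their level was 1724 to 1825 CPM in sh-Control, 2057 to 2172 in Sh-DDX41_1 and 2735 to 2790.4 in Sh-DDX41_2. LYZ alone made up 54.6% of the sum over all libraries. With Sh-DDX41_1, LYZ was at -0.10 ± 0.0654 on the log2 scale, while IRF8 went from 411 ± 24.8 to 758 ± 19.5 CPM. The median log2 fold change of the list was -0.03 with Sh-DDX41_1 and 0.01 with Sh-DDX41_2. MPEG1, a macrophage perforin, rose by 1.88 ± 0.101 (adjusted p = 4.4e-09) and 1.87 ± 0.101 (adjusted p = 1.1e-08) with the hairpins. IRF8 also rose with both, by 0.88 ± 0.0656 (adjusted p = 7.9e-08) and 0.27 ± 0.0653 (adjusted p = 0.0067). FCGR1A fell by 0.71 ± 0.0800 (adjusted p = 4.4e-06) with Sh-DDX41_1 and was at -0.14 ± 0.0770 with Sh-DDX41_2. LYZ, lysozyme, rose by 0.96 ± 0.0658 (adjusted p = 1.6e-07) and S100A9 by 1.71 ± 0.257 (adjusted p = 2.4e-04) with Sh-DDX41_2, where none of the HOXA members, MEIS1 or MYB was called. Their part in the values of the 9 genes was not tested.

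**Figure D5:**
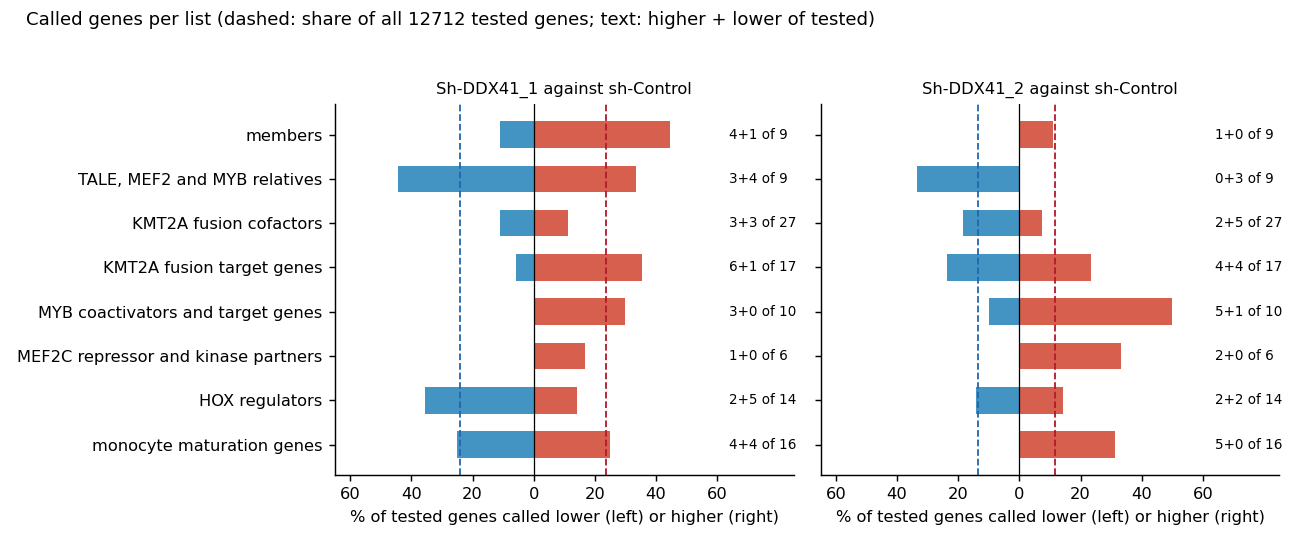
Percent of the tested genes of each list called lower (left) or higher (right) with each hairpin against sh-Control, with the counts as text and dashed lines at the shares of all 12712 tested genes, 24.1% lower and 23.7% higher with Sh-DDX41_1 and 13.4% lower and 11.6% higher with Sh-DDX41_2. No test of a list against other genes was run.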

How the data were processed

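RNA was isolated with a column kit from sorted MOLM13 cells, and poly(A)-selected libraries were sequenced by the authors. Per the labels the library kit keeps the strand, while the study's methods name one that does not, so overlapping genes on opposite strands are uncertain. The submitters' processing notes name FastQC 0.11.7, HISAT2 2.0.5 and featureCounts 1.5.2, and the builds mm10 and hg38 without their roles. The annotation is not given in the sources used here. The deposited table holds raw whole-number counts of each gene in 9 columns, matched to the libraries by name.

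The edgeR package 4.0.16 was run in R 4.3.3. The filter filterByExpr used a minimum count of 10, TMM factors ran from 0.963 to 1.02, and the quasi-likelihood fit took all 9 libraries with a term for each group. Tests were two-sided, the SE is the log2 fold change over the square root of F, and CPM levels carry the SD of 3 libraries. The biological coefficient of variation was 0.0768, which counting error exceeds below 170 counts. Exon lengths and positions came from GENCODE and promoter sequences from RefSeq, both on GRCh38.

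The 9 genes, the lists and the rule for named genes were chosen with earlier results of these data known. Members, DDX41 and the HOXA cluster genes examined were named whatever their result. From each other list, up to 3 called genes of smallest adjusted p were named per hairpin. KMT2A, MLLT3, CREBBP and EP300 were added after their values were seen, as were the MEF2C partners called with neither hairpin. Genes most like HOXA9, MEIS1 and MYB were those of smallest root mean square difference of log2 CPM (prior count 2), centred on sh-Control. The alternatives were other scaling, filters, tools (DESeq2 1.42.0, limma voom 3.58.1), samples and thresholds. For 2 listed genes no result is reported here. The scripts were tested on simulated data.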

Additional observations from a re-analysis of the deposited data

Results flagged for a closer look

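For 3 of the 9 genes the effects of the hairpins against sh-Control differed by the direct comparison of Sh-DDX41_1 with Sh-DDX41_2. The log2 difference was 0.93 for HOXA5 (edgeR adjusted p = 1.2e-05), 0.56 for HOXA6 (adjusted p = 0.0020) and 0.62 for MYB (adjusted p = 1.7e-05). In each gene all 3 Sh-DDX41_1 libraries were above all 3 Sh-DDX41_2 libraries, as in 57.7% of all tested genes in one direction or the other. Against sh-Control, Sh-DDX41_2 gave log2 fold changes of -0.05 for HOXA5, 0.04 for HOXA6 and -0.19 for MYB, none of them called.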

How the results depend on the processing

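Of 486 member values under the alternatives, 460 kept their direction and their side of the threshold, 13 changed sign, 10 newly passed it and 3 lost the call. The calls of HOXA5, HOXA6 and MYB with Sh-DDX41_1 and between the hairpins, of MEIS1 with Sh-DDX41_1 and of PBX3 with Sh-DDX41_2 held under all fits tried at the 0.05 threshold. Asking for a 2-fold change left 0 members called in each of the 3 comparisons, and an adjusted p under 0.01 left 0 with Sh-DDX41_2. Leaving out 1 library gave 4 to 6 members called with Sh-DDX41_1, 1 to 2 with Sh-DDX41_2 and 3 to 4 between the hairpins. The shares of all tested genes called in those fits were 41.5% to 48.5%, 15.9% to 32.9% and 40.1% to 49%.

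With the replicate letter as a block, 2 members were called with Sh-DDX41_2, MYB (-0.19, adjusted p = 0.0345) joining PBX3. HOXA9 was called between the hairpins (0.18, adjusted p = 0.0489). In that fit 28.1% of all tested genes were called with Sh-DDX41_2 and 51.2% between the hairpins. Between sh-Control and Sh-DDX41_1, deviations of same-letter libraries correlated at 0.0725, 0.158 and 0.243. Different-letter libraries of these groups gave lower values, from -0.184 to 0.0664. Same-letter pairs with Sh-DDX41_2 ran from -0.0574 to 0.0225. The letters thus had a trace in the first comparison only, and they were not used as pairs in the main fit. Sign changes were confined to values not called in any fit. Upper quartile scaling gave 0.0060 for HOXA7 with Sh-DDX41_1, and 0.041 for MEF2C between the hairpins, where library size only gave 0.0079 and at least 10 counts in every library gave 0.0040. Over libraries left out, HOXA7 with Sh-DDX41_1 ranged from -0.18 to 0.072, MEF2C between the hairpins from -0.071 to 0.063, and with Sh-DDX41_2 HOXA5 from -0.15 to 0.050, HOXA6 from -0.025 to 0.11 and HOXA10 from -0.015 to 0.063. The cause was not tested.

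Upper quartile scaling moved the higher share of all calls with Sh-DDX41_1 to 61.1% of 6302 (3010 of 6078 under TMM), and called PBX3 (0.18, adjusted p = 0.0278) and MEF2C (0.18, adjusted p = 0.0450) there and HOXA9 between the hairpins (0.22, adjusted p = 0.0271). It also called 6 of the MYB coactivators and targets with Sh-DDX41_1 in place of 3, and 10 of 17 KMT2A fusion target genes in place of 7. It called 49.6% of all tested genes there. With Sh-DDX41_2, the 3 other scalings called 5 to 6 of the 27 fusion cofactors in place of 7, DOT1L with none of them, beside 24.5% to 24.9% of all tested genes. HOXA6, at 129 to 205 counts, and the genes below it are limited by counting error.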
